A study of Mus musculus with 12 samples.

Results

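The B cell and antigen presentation genes Ighm, Cd79a, Cd79b, Ms4a1, Cd74, H2-Aa, H2-Ab1 and H2-Eb1 were read on arrays of cells labelled as CD4+, where their transcripts bear on how pure the preparations were. Every probe set that the array annotation assigns to 1 of these 8 genes alone was taken, which gave 24 of the 45101 probe sets for 8 of the 18194 genes with a probe set of their own, and 4 further probe sets shared between Ighm and other immunoglobulin genes were left out. Ighm had 11 of the 24, H2-Aa 4, H2-Ab1 3, Ms4a1 2 and the other genes 1 each.

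The series holds 12 Affymetrix mouse expression arrays of cells from female mice, 3 in each of 4 groups. The SKG group came from the lymph nodes of 40-week-old SKG mice, which carry a Zap70 mutation on a BALB/c background. Zap70 is the kinase that relays T cell receptor signals. The BALB group came from BALB/c mice of that age. Both were labelled as FR4- CD4+ cells stimulated with PMA and ionomycin, except that BALB replicate 1 was labelled as CD4+ cells of spleen and lymph node with no FR4 sort. The other groups were CD4+ cells in the spleen 7 days after transfer, at a labelled age of 7 weeks. In the IFN-γ-deficient transfer, cells of IFNg KO BALB/c mice were put into RAG2 KO BALB/c hosts. In the IL-6-deficient transfer, cells of IL-6 KO BALB/c mice were put into hosts lacking IL-6 and RAG2. RAG2-deficient mice make no mature B or T cells of their own but keep dendritic cells and macrophages, and neither stimulation nor a sort is given in the labels of these groups. Whether the replicates of a group were separate animals is not stated, and p-values therefore cover only array-to-array spread, part of which may be technical.

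A B cell displays its antibody as a membrane receptor in which the μ heavy chain, encoded by Ighm, pairs with a light chain, while Cd79a and Cd79b carry the signal into the cell. Ms4a1 encodes CD20, a membrane protein of mature B cells. MHC class II, which presents peptides to CD4+ T cells, is a pair of chains encoded at H2-Aa with H2-Ab1 and by H2-Eb1 with its partner, and Cd74 encodes the invariant chain that escorts them. B cells, dendritic cells and macrophages make class II under the coactivator Ciita, whereas mouse T cells are known for making little of it. Incomplete μ transcripts are also known from T cells.

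The promoters of class II genes share an X box and a Y box, the elements through which Ciita acts, and are shown because the class II genes gave the clearest pattern between groups below. Letters of both boxes stood in the same order and at a similar spacing in the 120 bases before the start of H2-Aa (GRCm38.p6, chr17:34287824-34287943, minus strand) and of H2-Eb1 (chr17:34305747-34305866, plus strand). The first capitals mark GCAACT, from the X box, and the second CTGATTGG, holding the Y box.
H2-Aa: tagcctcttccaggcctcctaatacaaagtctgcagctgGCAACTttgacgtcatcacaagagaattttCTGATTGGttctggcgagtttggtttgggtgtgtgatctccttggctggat
H2-Eb1: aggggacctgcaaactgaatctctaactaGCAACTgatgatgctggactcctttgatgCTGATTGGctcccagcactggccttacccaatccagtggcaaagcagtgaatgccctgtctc
The sequences are RefSeq's, from the C57BL/6J strain and not BALB/c, and 3 of the 8 genes were in the promoter table used. The boxes were 24 bases apart in H2-Aa and 23 in H2-Eb1. Searched on both strands of the 250 bases before 32851 starts, CTGATTGG stood in 3.83% and GCAACT in 9.01%. Both stood together in that order, 15 to 35 bases apart, before 7 starts (0.0213%), among them H2-Aa, H2-Eb1 and the related class II gene H2-Eb2. Since the promoters of H2-Aa and H2-Eb1 printed above hold both stretches, their place among the 7 is no separate result. A match describes letters and does not show that a factor bound there.

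The deposited values are linear intensities. Their median per array ran from 15.7 to 27.7, which was that of BALB replicate 3, and they are quoted as deposited, while tests and statements on overlap use the normalized levels. Unless an intensity is named, levels below are quantile-normalized log2(intensity + 16), and a fold change on that scale understates the change of dim probe sets. Only probe sets whose mean over the compared arrays was no lower than the 40th percentile were tested, a floor of 4.74 for SKG against BALB and 4.72 for the transfers. Of the genes named in the labels, Ifng had intensities of 454.7 to 764.1 in the IFN-γ-deficient transfer, against 11966.8 to 12883.8 in the IL-6-deficient transfer. Il6 had 7.4 to 87.0 in the IFN-γ-deficient transfer, against 35.5 to 201.1 in the IL-6-deficient transfer, so it was not lower where the label says it is missing, and the labels do not say which part was deleted. Zap70 probe set 1422701_at had 1567.7 to 2141.6 in SKG against 2946.0 to 3069.8 in BALB, and 1440178_x_at had 740.7 to 1022.3 against 1409.9 to 1908.4. Its probe set 1439749_at did not differ, with 112.8 to 132.3 in SKG against 103.8 to 182.5 in BALB (limma adjusted p = 0.938). The CD4+ label was checked against Cd3e, Cd4, Thy1 and other T cell genes: 10 of 11 probe sets of that list were above the floor on all arrays of SKG, of BALB and of the IFN-γ-deficient transfer alike, and 11 of 11 in the IL-6-deficient transfer. Their levels still differed between groups, as given below. Of the 8 genes' probe sets, 3 of 11 for Ighm and all 8 tested ones for class II and Cd74 were at or above the floor on all 12 arrays. Cd79a reached it on 7 of the 12 arrays, Cd79b on 6, and the Ms4a1 probe sets on 7 and 6.

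Ighm alone among the 8 genes had probe sets that changed between SKG and BALB. Its probe set 1427351_s_at had intensities of 4137.1, 5448.8 and 3285.4 in SKG, against 1063.6, 596.5 and 2805.2 in BALB. All SKG arrays lay above all BALB arrays, although BALB replicate 3 came near. The level was 12.13 ± 0.65 in SKG and 10.21 ± 0.90 in BALB (SD, n = 3 each), a rise of 1.93 ± 0.43 (SE, limma adjusted p = 0.0132). Probe set 1427329_a_at had 1585.7, 2716.7 and 1211.9 in SKG, against 522.4, 350.5 and 1367.5 in BALB, and rose by 1.54 ± 0.44 (SE, limma adjusted p = 0.036). Here the groups overlapped, since BALB replicate 3 was above SKG replicate 3. Both calls were lost without SKG replicate 1 (limma adjusted p = 0.0561 and 0.107) and without SKG replicate 2 (0.0581 and 0.127), and that of 1427329_a_at also without BALB replicate 1 (0.105) or 2 (0.11), with no filter (0.0746), without normalization (0.0698) and without the trend (0.06).

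The other Ighm probe sets differed by less and did not pass. Probe set 1427870_x_at had 97.9, 138.2 and 167.1 in SKG, against 54.9, 70.4 and 136.2 in BALB. Its difference of 0.61 (95% interval 0.12 to 1.10) had a limma adjusted p of 0.0779, and of 0.0276 once the replicate number was added as a block. The remaining 8 had intensities of at most 42.3 on any array. Of these, 5 were tested, with differences from -0.22 to 0.57, and none passed. Probe sets 1426196_at, 1427869_at and 1451949_at averaged below the floor.

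Over the 8 genes, 19 of the 24 probe sets were tested in this comparison, from 7 genes, and 2 rose and 0 fell by limma. Of all 27022 probe sets tested, 10.3% rose and 9.89% fell (20.2% together), so the share of the 8 genes' probe sets that rose was close to that of all probe sets. With the replicate block 3 rose and 1 fell, against 27.8% of all probe sets called in either direction. Without SKG replicate 3 the count was 4, and with replicates 1 and 2 only, an alternative added after seeing the data, it was 9. The median log2 difference was 0.31 over the 19 probe sets and -0.00 over all tested. The groups did not overlap for 4 probe sets that were higher in SKG and 1 that was lower, against 19.4% and 18.7% of all.

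**Figure D1:**
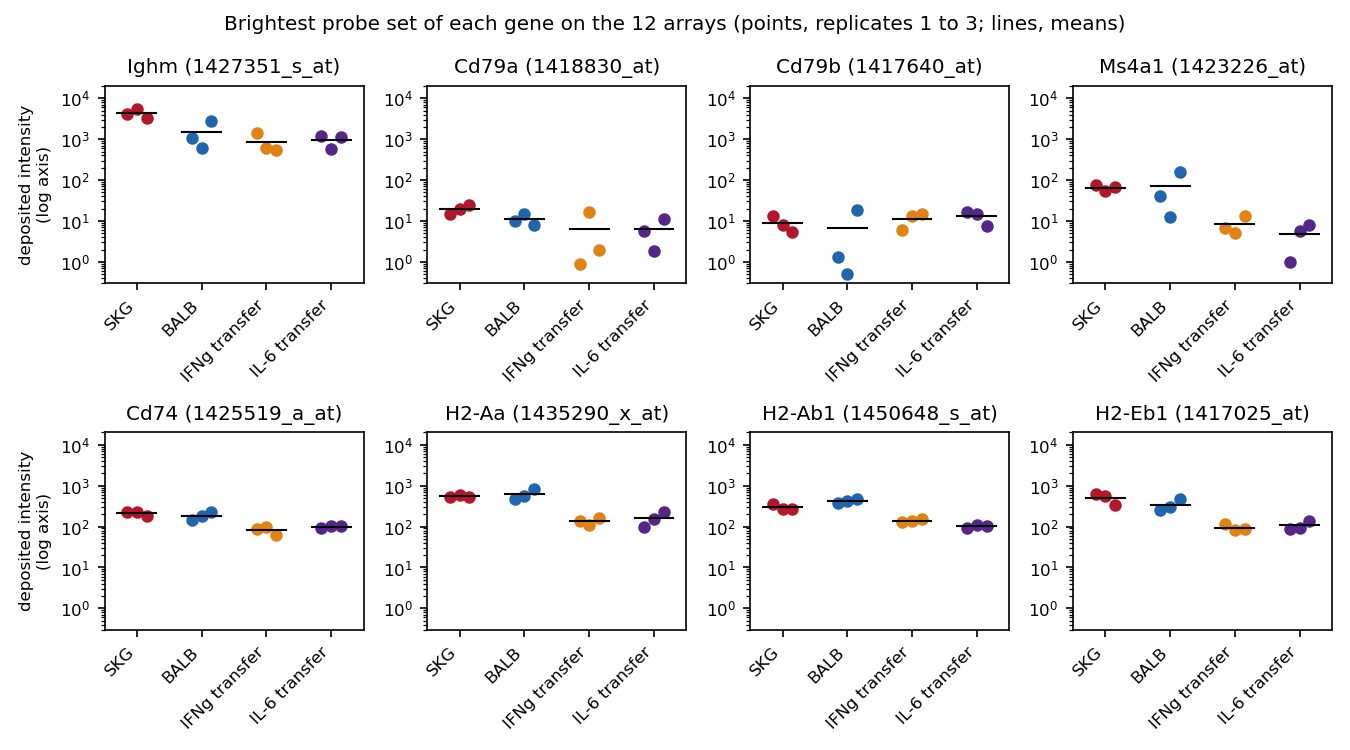
Deposited intensity (log axis) of the brightest probe set of each of the 8 genes on the 12 arrays. Points are replicates 1 to 3 of each group from left to right and lines are group means. Ighm lies highest in SKG, Cd79a and Cd79b stay under 25 on all 12 arrays with their groups overlapping, and the class II genes and Cd74 lie higher in SKG and BALB than in both transfers.

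Cd79a and Cd79b, the signalling chains without which the B cell receptor is not displayed, were at or near the floor. Cd79a had intensities of 14.5, 19.4 and 24.1 in SKG, against 10.0, 14.7 and 8.2 in BALB. Cd79a averaged 5.13 ± 0.10 in SKG and 4.76 ± 0.35 in BALB (SD, n = 3 each, 12-array scale with a floor of 4.73). Its difference of 0.36 (95% interval -0.18 to 0.91) did not pass (limma adjusted p = 0.334). In the transfers it had 0.9, 16.5 and 2.0 with IFN-γ-deficient cells, against 5.7, 1.8 and 11.3 with IL-6-deficient cells, and was not tested. Cd79b had 13.2, 8.0 and 5.3 in SKG, against 1.3, 0.5 and 18.4 in BALB, and was not tested there. With IFN-γ-deficient cells it had 5.9, 13.5 and 14.6, against 16.4, 14.6 and 7.7 with IL-6-deficient cells, a difference of -0.13 (95% interval -0.68 to 0.41, limma adjusted p = 1). On the SKG arrays Cd79a was above the floor on 3 of 3 and Cd79b on 1 of 3, and neither had an intensity over 24.1.

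Ms4a1 varied widely among the BALB arrays. Its probe set 1423226_at had 76.4, 54.1 and 66.1 in SKG, against 41.6, 12.8 and 158.7 in BALB, so that the 3 SKG arrays lay within the range of BALB. The level was 6.36 ± 0.30 in SKG and 6.04 ± 1.09 in BALB (SD, n = 3 each), a difference of 0.31 (95% interval -0.72 to 1.34, limma adjusted p = 0.691). The value depended on single BALB arrays, at -0.22 without replicate 2 and 0.87 without replicate 3. Probe set 1450912_at had the same pattern, with 42.5, 24.7 and 37.9 in SKG, against 13.5, 0.8 and 92.3 in BALB (difference 0.48, limma adjusted p = 0.561). In the transfers both were low: 1423226_at had 6.8, 5.1 and 13.5 with IFN-γ-deficient cells, against 1.0, 5.6 and 8.0 with IL-6-deficient cells, below the tested floor on average.

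BALB replicate 3, labelled as an FR4- lymph node sample, was also the highest BALB array for other B cell genes, on the normalized scale. Of 16 probe sets of the B cell list with a mean over the floor, 11 (68.8%) were highest in replicate 3 and 0 in replicate 2, against 39.8% and 30.1% of all probe sets. Class II genes and Cd74 did not share this on the normalized scale, with 6 of 8 probe sets (75.0%) highest in BALB replicate 2. There 5 of 8 (62.5%) were lowest in replicate 3, against 41.8% of all probe sets. In deposited intensity replicate 3 was instead the highest BALB array for all of these 8 except H2-Ab1 1425477_x_at. The order of the BALB arrays at these genes therefore depended on the normalization. The complement receptor gene Cr2 had intensities of 29.2, 23.9 and 31.5 in SKG, against 19.4, 8.7 and 92.1 in BALB. BALB replicate 3 was thus above every SKG array for Cr2, as it was for Ms4a1.

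No B cell gene outside the 8 passed as higher in SKG than in BALB. The list had 22 genes, of which 18 were read by 29 probe sets, and the others were not analysed here. Of 20 probe sets tested 0 rose and 3 fell by limma, against 10.3% and 9.89% of all probe sets. At an unadjusted p under 0.05, 4 were higher. The share of all probe sets at that threshold was not counted, here or below. It cannot be smaller than the share that passed after adjustment. The list had a median of 0.26 against -0.00 over all probe sets. The 3 that fell all belong to Cd24a, a surface glycoprotein of B cells and of other blood cells including developing T cells, with differences of -2.78, -2.08 and -2.42 (limma adjusted p from 0.000208 to 0.00169). Cd22, a B cell inhibitory receptor, had 36.0, 21.9 and 13.1 in SKG, against 6.8, 10.2 and 44.4 in BALB, and overlapped. Both probe sets of Pax5, the factor that fixes B cell identity, averaged below the floor, with intensities of at most 9.8 for 1421765_at and 27.4 for 1454401_at. Fcer2a, the low-affinity IgE receptor, had 60.8, 43.3 and 43.7 in SKG, against 19.7, 13.0 and 53.7 in BALB (difference 0.67, limma adjusted p = 0.112). Blk, a kinase of the B cell receptor, differed by 0.96 (limma adjusted p = 0.0587). With the replicate block Cd72 and 1 probe set of Ebf1 rose (limma adjusted p = 0.0436 and 0.0411).

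Genes of plasma cells, which secrete antibody, moved with Ighm only in part. Jchain, which joins secreted IgM into pentamers, had 645.1, 765.7 and 523.3 in SKG, against 294.4, 144.7 and 765.6 in BALB (difference 1.01, limma adjusted p = 0.13), and BALB replicate 3 was again high. Of 10 probe sets tested in the plasma cell list 5 rose and 1 fell, against 10.3% and 9.89% of all probe sets, with a median of 0.91. Those that rose were 3 of Xbp1, the secretory pathway factor, by 1.01 to 1.21, Prdm1, by 1.75, and the endoplasmic reticulum gene Derl3, by 0.80. Xbp1 and Prdm1 are also made by activated T cells. Probe set 1437279_x_at of Sdc1, the plasma cell surface marker CD138, fell by 1.19 (limma adjusted p = 0.00654). The summed normalized intensity of the list's 13 probe sets was 9125 to 11545 in SKG and 4498 to 5414 in BALB. It was 8118 to 9546 in the IFN-γ-deficient transfer and 7395 to 9648 in the IL-6-deficient transfer, so a high sum was not particular to SKG. The brightest probe set of Xbp1 had deposited intensities of 4246.1, 4268.8 and 6294.4 in SKG, against 2133.1, 2370.9 and 3501.3 in BALB. Xbp1 thus weighs heavily in the sum, which does not read plasma cells alone.

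RNA quality moved with the groups as well. The 3'/5' ratio of the actin control was 2.12, 1.93 and 2.63 in SKG, against 3.04, 2.95 and 3.98 in BALB, without overlap, while that of Gapdh overlapped. The part of these values, of plasma cell genes and of B cell genes in the Ighm difference was not tested. In such bulk samples fewer cells of a type and less RNA per cell cannot be told apart.

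**Figure D2:**
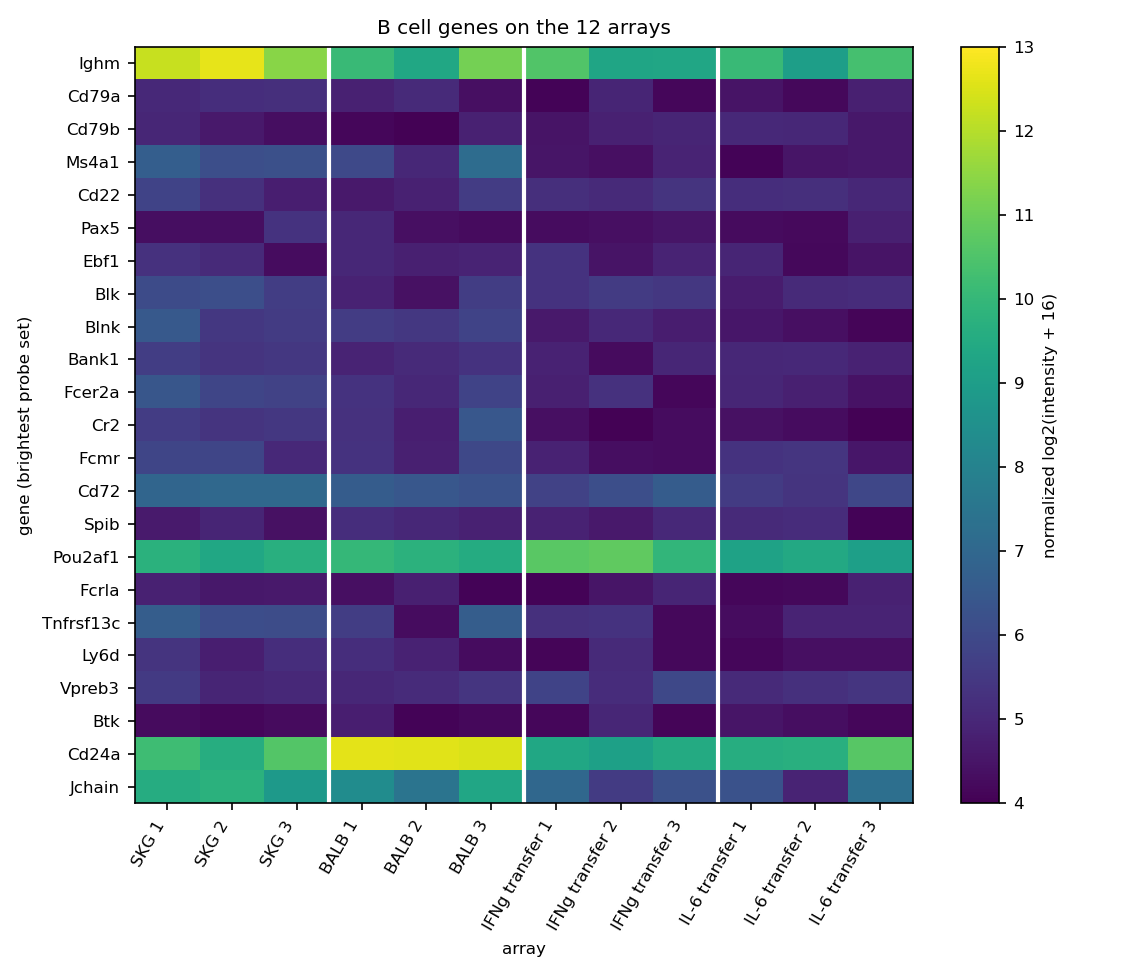
Normalized log2(intensity + 16) (colour) of the brightest probe set of each of Ighm, Cd79a, Cd79b, Ms4a1, the measured B cell list genes and Jchain on each of the 12 arrays, to be read along each row. Ighm and Jchain are bright in SKG and in BALB replicate 3, Ms4a1 and Cr2 are highest in BALB replicate 3, and Cd24a is brightest in BALB.

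No probe set of the class II genes or Cd74 passed between SKG and BALB, and their differences lay on both sides of 0. An unadjusted p under 0.05 was reached by 2 of 8, and by no fewer than the 20.2% of all probe sets that passed. H2-Eb1 had 619.0, 557.6 and 329.9 in SKG, against 259.1, 307.6 and 471.0 in BALB, with overlap and a difference of 0.59 (95% interval -0.12 to 1.29, limma adjusted p = 0.23). Without SKG replicate 3 it rose by 0.98 (limma adjusted p = 0.00644). H2-Ab1 lay lower on average at all 3 of its probe sets. Probe set 1451721_a_at had 105.1, 92.1 and 103.3 in SKG, against 141.0, 155.3 and 179.9 in BALB, without overlap, and its difference of -0.56 (95% interval -0.97 to -0.15) narrowly missed the threshold (limma adjusted p = 0.0579, or 0.0375 when blocked on replicate, and 0.0384 with a stricter filter at the 60th percentile). The other 2 probe sets of H2-Ab1 had differences of -0.47 and -0.46.

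H2-Aa, the α chain that pairs with the H2-Ab1 product, had differences on both sides of 0. Probe set 1435290_x_at had 541.2, 590.1 and 544.3 in SKG, against 464.4, 574.5 and 850.6 in BALB (difference -0.05, 95% interval -0.50 to 0.40). Probe set 1438858_x_at had 330.9, 216.0 and 282.0 in SKG, against 177.5, 189.0 and 208.9 in BALB, without overlap, yet its difference of 0.51 did not pass (limma adjusted p = 0.134). Probe set 1452431_s_at differed by 0.31, and by 0.70 without SKG replicate 3 (limma adjusted p = 0.0123), and 1443783_x_at had at most 8.1 on any array and was not tested. Cd74 had 230.6, 228.1 and 183.3 in SKG, against 147.0, 182.3 and 227.0 in BALB (difference 0.23, 95% interval -0.26 to 0.72).

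Of the other genes of class II presentation, 2 of 17 tested probe sets passed, 1 higher and 1 lower, against 20.2% of all probe sets. Ctss, the protease that trims the invariant chain, rose by 0.73 (limma adjusted p = 0.0143), with 1820.7, 1528.4 and 1978.1 in SKG, against 866.3, 1153.3 and 1531.7 in BALB. H2-Ob, a chain of the modulator H2-O, fell by 1.15 (limma adjusted p = 0.00529). H2-DMb2, a chain of the peptide-loading factor H2-DM, differed by 0.75 at probe set 1443686_at and passed once replicates were blocked (limma adjusted p = 0.059, or 0.0234 with the block). Ciita probe set 1421210_at had an intensity of at most 25.9 in SKG, against at most 40.0 in BALB, and a difference of -0.22 that did not pass (limma adjusted p = 0.518).

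In the transfer comparison none of the 8 genes passed. Of 24 probe sets 16 were tested, and 0 rose and 0 fell by limma, also with the replicate block, with 0 at an unadjusted p under 0.05. Few probe sets passed at all, 0.0259% of 27022 higher and 0.0185% lower with IFN-γ-deficient cells (0.0444% together, and 1.17% with the block). The groups did not overlap for 2 tested probe sets that were higher, Ighm 1452535_at and H2-Ab1 1450648_s_at, and 1 that was lower, against 5.24% and 4.46% of all. Ighm probe set 1427351_s_at had 1442.9, 592.7 and 558.8 with IFN-γ-deficient cells, against 1218.0, 576.7 and 1141.1 with IL-6-deficient cells. The groups overlapped, and the difference of -0.10 had a 95% interval of -1.11 to 0.91.

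Class II genes lay close together in the transfers. H2-Eb1 had 114.4, 83.2 and 86.4 with IFN-γ-deficient cells, against 88.2, 92.8 and 140.7 with IL-6-deficient cells (difference -0.15, 95% interval -0.82 to 0.52). The probe sets of H2-Ab1 disagreed in direction, at 0.43 for 1450648_s_at and -0.42 for 1425477_x_at, and neither passed (limma adjusted p = 1 for both). Of the B cell list 0 of 13 tested probe sets passed by limma and of the class II machinery 0 of 15, with 2 and 1 at an unadjusted p under 0.05. The share of all probe sets at that unadjusted threshold was not counted. Pou2af1, a coactivator of B cells also found in T cells, rose by 1.23 when the replicate block was fitted (limma adjusted p = 0.00229), as did Derl3 of the plasma cell list, by 0.98 (0.0207), and the T cell gene Cd5, by 0.44 (0.0262).

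**Figure D3:**
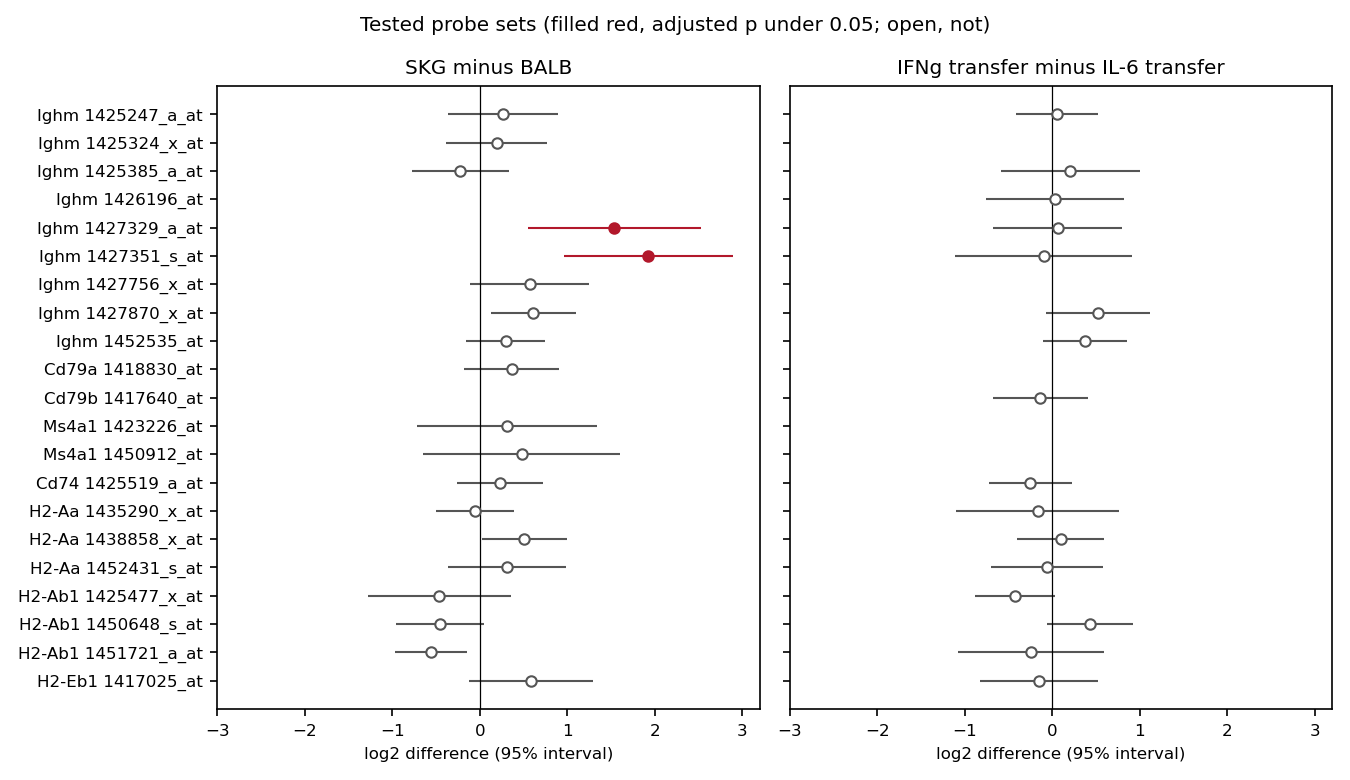
Log2 difference with its 95% interval for each tested probe set of the 8 genes, SKG minus BALB on the left and IFN-γ-deficient minus IL-6-deficient transfer on the right. Only Ighm probe sets 1427351_s_at and 1427329_a_at pass, both in SKG against BALB, and the other intervals that leave out 0 are those of Ighm 1427870_x_at, H2-Aa 1438858_x_at and H2-Ab1 1451721_a_at, also in SKG against BALB.

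Across the 4 groups, class II genes and Cd74 had the clearest order. All 8 of their tested probe sets were higher on every SKG and BALB array than on every transfer array, and all 8 were at or above the floor on all 12 arrays. Of all 27022 probe sets tested over the 12 arrays 5.5% were higher in this way and 5.86% lower. In alternatives chosen after seeing the data, the count was 8 also with replicates 1 and 2 only, without BALB replicate 1, without normalization, and with 1 or 64 in place of the added 16. H2-Eb1 averaged 9.01 ± 0.68 in SKG, 8.44 ± 0.24 in BALB, 6.79 ± 0.23 in the IFN-γ-deficient transfer and 6.94 ± 0.51 in the IL-6-deficient transfer (SD, n = 3 each). H2-Aa probe set 1435290_x_at averaged 9.20 ± 0.26, 9.25 ± 0.25, 7.24 ± 0.39 and 7.40 ± 0.76 in that order of groups. SKG and BALB overlapped at both, as did the 2 transfers. The median difference of the 8 probe sets was 1.79, and for all probe sets it was -0.00. The other genes of class II presentation did not share this order. Of their 17 tested probe sets 0 were higher on every SKG and BALB array and 0 lower, with a median of -0.02. Ciita 1421210_at had levels of 5.03 to 5.55 in SKG and BALB, against 4.73 to 5.31 in the transfers. Ctss differed by -0.44, H2-Ob by 1.07 and H2-DMb2 1443686_at by 0.84, all with overlap.

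Ighm and Ms4a1 did not share that order as a set, while Cd79a and Cd79b averaged below the 12-array floor and were not counted. Of 10 tested probe sets, all of Ighm or Ms4a1, 1 was higher on every SKG and BALB array. It was Ms4a1 1423226_at, at 6.35 ± 0.30 in SKG, 6.04 ± 1.09 in BALB, 4.59 ± 0.27 in the IFN-γ-deficient transfer and 4.40 ± 0.27 in the IL-6-deficient transfer. Ighm 1427351_s_at averaged 12.11 ± 0.64 in SKG, 10.19 ± 0.89 in BALB, 9.73 ± 0.73 in the IFN-γ-deficient transfer and 9.82 ± 0.68 in the IL-6-deficient transfer. SKG stood above BALB without overlap, while BALB and both transfers overlapped. Ighm was thus above the floor at this probe set in CD4+ cells from RAG2-deficient spleens as well. Of the B cell list, 2 of 16 probe sets tested over the 12 arrays were higher on every SKG and BALB array, 0 were lower, and the median difference was 0.76. They were Cr2, at 4.74 to 6.45 in SKG and BALB against 4.05 to 4.40 in the transfers, and Blnk, an adaptor of B cell receptor signalling, at 5.46 to 6.53 against 5.04 at most. Cr2, Blnk and Ms4a1 1423226_at averaged below the floor of the transfer comparison, so they passed the 12-array filter through their SKG and BALB values. Such probe sets can hardly come out lower in SKG and BALB, so these counts are fixed in part by the filter. Fcer2a, Tnfrsf13c and Cd72 were higher on average in SKG and BALB, by 0.96, 1.09 and 0.83, with overlap. So were the 3 probe sets of Cd24a, by 1.70 to 1.85, which count in the median of the B cell list. Of the plasma cell list, 1 of 10 tested probe sets was higher on every SKG and BALB array and 0 were lower, with a median of -0.23. It was Jchain, at 7.48 to 9.76 against 4.91 to 7.28 in the transfers, a difference of 2.68.

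Age, tissue, labelled stimulation, sort, transfer and host all differ between these pairs of groups and cannot be told apart, so no test was made across them. Of other cells that make class II, 0 of 7 tested dendritic cell probe sets were higher on every SKG and BALB array and 1 was lower, with a median difference of -0.18, and of 7 macrophage probe sets 0 were higher and 2 lower, with a median of -0.39. The dendritic cell genes differed among themselves. Bst2, also induced by interferon in other cells, was higher in SKG and BALB by 0.55 on average, with overlap, and Zbtb46 had values on both sides of 0. Itgax, which encodes CD11c of dendritic cells, had 14.0 to 20.8 in SKG, 12.2 to 17.8 in BALB, 47.1 to 67.2 in the IFN-γ-deficient transfer and 71.2 to 78.8 in the IL-6-deficient transfer. Summed normalized intensities of the 11 dendritic cell probe sets were 267.2 to 398.1 in SKG, 196.4 to 254.8 in BALB, 241.6 to 290.1 in the IFN-γ-deficient transfer and 306.7 to 318.8 in the IL-6-deficient transfer. Those of 15 macrophage probe sets were 173.3 to 239.8, 196.1 to 260.3, 301.1 to 328.3 and 234.2 to 318.4 in that order of groups. Of these lists 0 of 8 dendritic cell and 0 of 7 macrophage probe sets tested passed by limma between SKG and BALB, with 2 and 1 at an unadjusted p under 0.05. At least the 20.2% of all probe sets that passed were also under that value. Bst2 rose when replicates were blocked (limma adjusted p = 0.046) and Cd68 fell (0.0279), and the T cell receptor gene Cd3g rose (0.000668). By limma without the block 1 of 11 T cell probe sets rose and 2 fell, against 10.3% and 9.89% of all probe sets. Thy1 differed by 1.44, Cd5 by -0.97 and Lat by -0.71 (limma adjusted p = 0.000533, 0.00623 and 0.0228). Of other cell types Nkg7, from natural killer and cytotoxic cells, rose by 3.53, and Klrd1 of the same list by 0.70 (limma adjusted p = 0.0451). Cd8b1 fell by 2.49, while no tested probe set of Cd8a passed, with differences from -0.11 to 0.81. Flt3, of dendritic cells, and Lyz2, of macrophages, had at most 26.9 and 56.3 on any array. Of the 11 T cell probe sets, 0 were higher on every SKG and BALB array than on every transfer array and 3 were lower. Of all probe sets 5.5% were higher in this way and 5.86% lower. The 3 were those of Cd3e and Thy1 and 1 of Cd4, with differences of -1.56, -1.61 and -1.56. The other T cell probe sets overlapped, and the median of the list was -0.42. The part of B cell, dendritic cell, macrophage and T cell markers in the class II order was not tested.

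Whether a probe set moved differently in the 2 comparisons was tested over all 12 arrays. The 18 tested probe sets came from 6 of the 8 genes. None of them passed by limma, against 4.5% of all 27022 probe sets (2.42% higher and 2.08% lower). Without a count over all probe sets at that threshold, 3 had an unadjusted p under 0.05. They were Ighm 1427351_s_at, at 2.02 ± 0.69 (SE, adjusted p = 0.121), Ighm 1427329_a_at, at 1.46 ± 0.61 (0.213), and H2-Ab1 1450648_s_at, at -0.88 ± 0.32 (0.146). With the replicate block 1427351_s_at and 1450648_s_at passed (limma adjusted p = 0.0383 and 0.0248), against 18.4% of all. The rise of Ighm in SKG is therefore not shown to differ from its transfer value without that block.

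Likeness between arrays of a group was described by Pearson's r over the 12 deviations from group means, which share their arrays and normalization. Among 12170 genes outside the 8, those most like H2-Ab1 1450648_s_at were Cdon, Nfil3, Atxn7l1, Lmnb1 and Il18r1 (r from 0.91 to 0.93). Those most like Cd79a, itself near the floor, were Os9, Ahi1, B830008H07Rik, Dnm3 and Arnt (r from 0.82 to 0.92). None of these belongs to the lists above. Ighm 1427351_s_at and Ms4a1 1423226_at were added to this search after their values were seen. Those most like Ighm were Dcdc2a, Jchain, Tyr, Ssu2 and Aldh1a2 (r from 0.88 to 0.93), of which Jchain alone is on the lists above. Those most like Ms4a1 were Rapgef5, Cox8c, Mir670hg, Rab15 and Psg21 (r from 0.90 to 0.94), and none is on those lists.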

How the data were processed

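The deposited values are linear intensities, 1 per probe set and array. Biotin-labelled RNA made by in vitro transcription was hybridised after RNeasy extraction, per the labels' protocols. The summary software, and any scaling by the authors, is not given in the sources used here. Control probe sets, 64 in number, were set aside. Of 45101 probe sets the annotation gave 1 gene for 34958, several for 932 and none for 9211, and symbols were updated by gene ID to GRCm38.p6 for 34754.

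Arrays of each comparison were quantile normalized together as log2(intensity + 16), and each probe set was tested on its own, with limma 3.58.1 in R 4.3.3 (lmFit, then eBayes with a trend on level). Tests were two-sided, and p-values were adjusted by the Benjamini-Hochberg method over all probe sets tested and called at 0.05. The difference between comparisons was an interaction contrast over 12 arrays. The fit was tested on simulated data. No depth applies to arrays, and their number limits the precision.

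All probe sets of the 8 genes are reported. Other genes are named by list, where they passed, as defining markers, or as the 5 most alike, and not every defining marker is named. The members and lists were chosen with earlier results of these data known. Alternatives were other added constants, filters and normalization, 1 probe set per gene, no trend, 1 fit of 12 arrays, the replicate block, and leaving out each array.

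To check whether replicate numbers pair the arrays, each array's deviations from its group were correlated with those of the array of the same number. In replicates 1 to 3 r was 0.151, 0.171 and 0.347 for SKG with BALB, and 0.428, 0.404 and 0.679 for the transfers. All exceed 0.1, so blocked values are given where they change a call. Replicates 1 and 2 correlated as well across numbers (0.193 and 0.153, and 0.422 and 0.382), so the block acts mainly on replicate 3.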

Additional observations from a re-analysis of the deposited data

How the results depend on the processing

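The count of the 8 genes' probe sets called between SKG and BALB was 2, and 1 with no filter, without normalization, with the brightest probe set per gene and without the trend. It was 3 with the filter at the 60th percentile, where H2-Ab1 1451721_a_at also passed, 4 with the replicate block, 0 to 4 when each array was left out in turn, and 9 with replicates 1 and 2 only, an alternative chosen after seeing the data. In the transfers it was 0 under every alternative run. The difference between the comparisons gave 0, except 2 with the replicate block and 3 with replicates 1 and 2 only. The cause of these changes was not tested.

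Of 518 values of single probe sets under the alternatives 464 kept direction and side of the threshold, 9 lost a call, 13 gained one, and 32 changed sign, all for differences that passed in neither fit. Leaving out each array gave ranges that cross 0 for SKG against BALB of -0.22 to 0.87 and -0.071 to 1.08 (Ms4a1 1423226_at and 1450912_at), -0.057 to 0.46 and -0.021 to 0.30 (Ighm 1425247_a_at and 1425324_x_at) and -0.19 to 0.10 (H2-Aa 1435290_x_at, 0.22 with replicates 1 and 2 only). In the transfers they were -0.32 to 0.15 (H2-Eb1), -0.29 to 0.0086 (Cd79b), -0.52 to 0.25, -0.055 to 0.24 and -0.36 to 0.094 (H2-Aa 1435290_x_at, 1438858_x_at and 1452431_s_at), and for Ighm -0.049 to 0.15 (1425247_a_at), -0.023 to 0.44 (1425385_a_at), -0.28 to 0.22 (1426196_at), -0.21 to 0.31 (1427329_a_at, -0.029 without normalization) and -0.52 to 0.15 (1427351_s_at). With replicates 1 and 2 only the transfer differences were 0.13 for H2-Eb1, 0.33 for Ighm 1427351_s_at, 0.041 and 0.074 for H2-Aa 1435290_x_at and 1452431_s_at, and 0.072 for H2-Ab1 1451721_a_at. Replicate 3 of both transfers had the highest Gapdh 3'/5' ratios, 7.99 with IFN-γ-deficient and 9.33 with IL-6-deficient cells, against 2.42 to 2.84 on the other transfer arrays. Probe sets near the floor have no reliable order, which limits Cd79a, Cd79b and most of Ighm.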
